A study of Rattus norvegicus with 6 samples.

Results

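The genes described here, 7 in number, had an intensity that was highest in the rat ovary at postnatal day 4 (P4), above both the ovary at birth (P0) and ovaries taken at birth and cultured. They were selected on these measured intensities: the probe set (the group of short probes that reads a transcript) had to carry 1 gene symbol, its lower P4 array had to read at least 40, and that reading had to be at least 1.5 times the highest of the 4 P0 and cultured arrays. Of 7006 probe sets with 1 symbol, for 4736 genes, 13 met both bounds, which is 0.186%, and 6 of those, for Inha, Amh, Cyp19a1 and Akr1c14, were left out by name together with all symbols beginning Slc, Ccn, Cdk or Cdc. The 7 that remained were Fhl2, Csdc2, Pola2, Kcnh1, Cd3d, Nptx2 and Gpx3, with 1 probe set each. A further 2 probe sets that met the bounds carried no symbol or several. The same bounds turned to the other groups were met by 39 probe sets (0.557%) highest at P0 and 131 (1.87%) highest after culture. Everything that sets P4 against P0 or culture for these 7 genes is therefore a description, given without a test.

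Total RNA of whole ovaries was hybridized to 6 Affymetrix rat expression arrays, 2 in each of 3 groups. The groups were ovaries at birth, ovaries of 4-day-old pups, and ovaries removed at birth and kept for 7 days on floating filters with 0.4 µm pores, in 0.5 ml of DMEM/Ham's F-12 medium holding 0.1% bovine serum albumin, 0.1% Albumax, transferrin, 200 ng/ml insulin, 0.05 mg/ml ascorbic acid, penicillin and streptomycin. Each array held RNA of a pool of about 20 ovaries, the labels call the pools of a group independent, and the labels name no strain of rat. The series text mentions progesterone given to ovaries in culture, the sample labels do not, so it is unsettled whether either cultured array was treated. The cultured ovaries were also 3 days older than the P4 ovaries by the calendar, so age and culture cannot be told apart in that comparison.

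Around birth the germ cells of the rat ovary lie in nests, and in the following days somatic pregranulosa cells surround single oocytes to form primordial follicles, the first of which begin to grow at once. Growing follicles divide their granulosa cells, surround the oocyte with a zona pellucida and begin to make inhibin, anti-Müllerian hormone and steroid-making enzymes. The 7 genes are not a known pathway: they code for a LIM-domain adaptor, an RNA-binding protein, a subunit of a DNA polymerase, a potassium channel, a chain of the T cell receptor complex, and 2 secreted proteins. Each array reads RNA of the whole organ, so fewer cells of a type and less RNA per cell cannot be told apart.

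Intensities had been scaled to a common level on the 6 arrays, and replicate arrays correlated at 0.962 to 0.969 across probe sets on the log2 scale. P0 replicate 1 stood apart in its controls, with a summed GAPDH intensity of 4003.2 against 6221.3 to 8126.7 on the other arrays and a summed intensity of spiked bacterial and phage transcripts of 16730.4 against 7800.0 to 11669.7. The highest reading among 23 negative controls, probe sets whose transcript was not added, was 20.0, which is used here as the level of no signal. The 8 oocyte genes on the array summed to 1392.4 to 1491.7 at P0, 4099.6 to 4438.6 at P4 and 3275.6 to 3360.5 after culture, so markers of the labelled organ were present. Most of that sum at P4 came from Zp2 and Zp3, with means of 1624.0 and 1775.0 there. Ddx4 had means of 200.4 at P0 and 200.2 at P4, Bmp6 of 94.3 and 85.1, and Mos was under 20 on every array.

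The 7 genes lay above the median probe set at P4, and 4 of them had dim readings in the other groups. Their lower P4 arrays read between 42.5 and 181.9, against medians over all probe sets of 37.7 on P4 replicate 1 and 39.9 on P4 replicate 2. On 4 of the 7 genes at least 1 P0 or cultured array read under 20. With such readings set to 20, which makes the ratios of those genes lower bounds, the mean P4 intensity was 2.06 to 3.65 times the mean P0 intensity and 1.67 to 3.38 times the mean cultured intensity. A further 15 control probe sets, which read the strand opposite to a transcript, gave a median of 37.5 and a highest reading of 137.0. The lower P4 array of all 7 genes lay above that median, and that of 2 of them, Fhl2 and Pola2, above that highest reading.

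**Figure D1:**
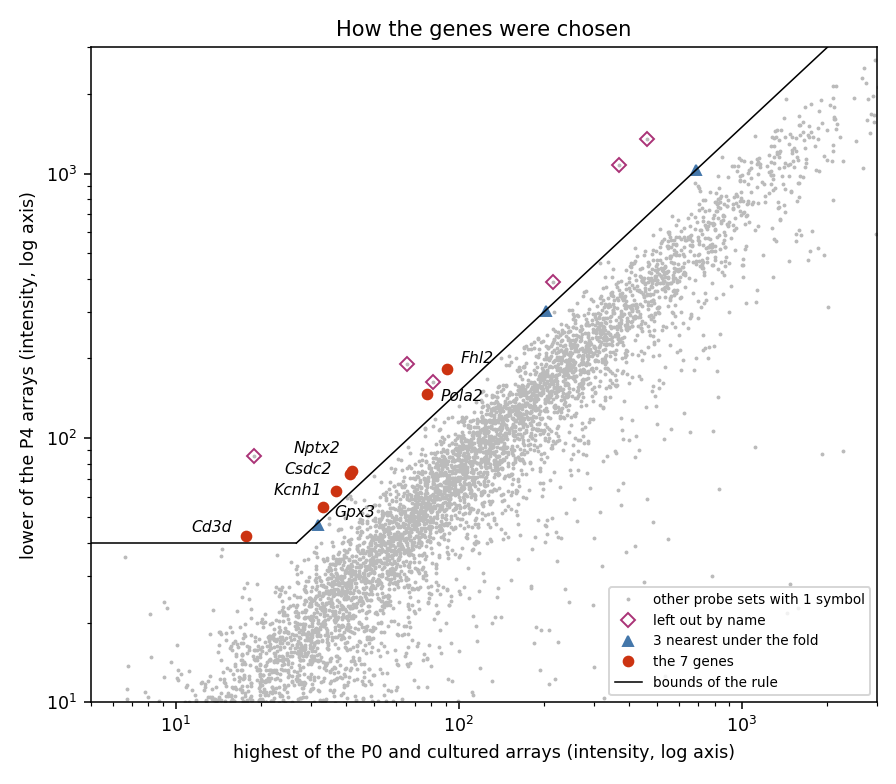
The lower P4 array (vertical, log axis) against the highest of the 4 P0 and cultured arrays (horizontal, log axis) for probe sets with 1 symbol; probe sets outside the axis ranges are not drawn. The 7 genes (filled red circles) lie above the bounds at 40 and at 1.5 times, between 42.5 and 181.9 on the vertical axis, and the brightest of the probe sets left out by name (diamonds) lie higher on it.

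Fhl2 was the brightest of the 7. It codes for an adaptor made of LIM domains that carries signals between the cytoskeleton and transcription factors. The intensities on replicates 1 and 2 were 77.9 and 91.0 at P0, 181.9 and 212.9 at P4, and 83.1 and 83.8 after culture. Both P4 arrays lay far above the other 4, the P0 and cultured ranges overlapped, and the mean at P4 was 2.34 times that at P0 and 2.37 times that after culture. Matching each P4 array to the P0 array of the same number gave ratios of 2.34 and 2.34.

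RefSeq (assembly GRCr8) gives Fhl2 2 starts in the promoter table used here. The 250 bases before each are shown because they differ in GC content and in the motifs matched, and the array's probe set does not tell which start was used. Capitals mark matches on either strand to the searched motifs: the TATA box (TATAAA), the GC box of Sp1 (GGGCGG), the E-box (CANNTG) and the GATA site (AGATAA). The first, at chr9:52954541-52954790 on the minus strand, has a GC content of 53.2%. It holds 3 E-boxes and, as printed, the reverse complement of the TATA box letters (TTTATA) and of the GATA letters (TTATCT), not those letters themselves. The second, at chr9:52923327-52923576 on the minus strand, holds 2 GC boxes and 1 E-box with a GC content of 65.2%.
Fhl2 first start: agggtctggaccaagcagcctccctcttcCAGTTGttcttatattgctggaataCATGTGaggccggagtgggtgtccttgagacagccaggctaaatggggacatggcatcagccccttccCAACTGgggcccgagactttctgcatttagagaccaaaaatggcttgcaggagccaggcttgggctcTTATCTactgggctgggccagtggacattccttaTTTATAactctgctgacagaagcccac
Fhl2 second start: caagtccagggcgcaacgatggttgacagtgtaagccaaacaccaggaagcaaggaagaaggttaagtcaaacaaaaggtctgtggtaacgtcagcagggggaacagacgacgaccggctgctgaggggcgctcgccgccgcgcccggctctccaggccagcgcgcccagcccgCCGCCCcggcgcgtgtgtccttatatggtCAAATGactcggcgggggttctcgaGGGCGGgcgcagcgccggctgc

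Csdc2 codes for a small cold shock domain protein that binds RNA. Its intensities were 17.1 and 41.4 at P0, 75.1 and 72.7 at P4, and 23.7 and 10.1 after culture. The P4 arrays were close to each other, whereas the P0 arrays were 24.3 apart and overlapped the cultured ones. With readings under 20 set to 20, the mean at P4 was at least 2.41 times that at P0 and at least 3.38 times that after culture. The ratio to the P0 array of the same number was at least 3.76 for replicate 1, whose P0 reading was under 20, and 1.76 for replicate 2. Neither of the other cold shock domain genes read on the array had the pattern. Ybx1, a general RNA- and DNA-binding protein, read 49.1 and 34.1 at P0, 37.4 and 42.7 at P4, and 44.3 and 48.4 after culture, and the brighter Ybx3 read 711.2 and 462.9 at P0, 609.0 and 722.4 at P4, and 273.8 and 607.8 after culture, with P4 and P0 overlapping.

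Pola2 codes for the regulatory subunit of DNA polymerase alpha, the enzyme that, with primase, lays down the first stretch of each new DNA strand. It read 67.1 and 70.5 at P0, 147.1 and 147.3 at P4, and 77.1 and 77.1 after culture. The arrays of each group lay within 3.4 of each other, the tightest groups among the 7, and the mean at P4 was 2.14 times that at P0 and 1.91 times that after culture. The P0 and cultured arrays did not overlap, the cultured ones being slightly higher. The 3 other subunits of the enzyme were also on the array, and none met the bounds. Pola1, the catalytic subunit, was dim and read 22.6 and 34.0 at P0, 32.5 and 23.7 at P4, and 21.3 and 22.3 after culture. Prim1, the small primase subunit, read 286.5 and 307.6 at P0, 275.2 and 383.0 at P4, and 224.5 and 214.6 after culture on its brighter probe set. A second probe set of Prim1 read 220.9 and 180.4 at P0, 244.2 and 242.3 at P4, and 192.2 and 121.5 after culture, so there both P4 arrays were the highest, short of the bound on fold. Prim2, the large primase subunit, read 119.2 and 120.2 at P0, 217.1 and 183.6 at P4, and 148.7 and 195.8 after culture on its brighter probe set. A second probe set of Prim2 read 121.8 and 121.0 at P0, 179.3 and 146.1 at P4, and 133.3 and 192.5 after culture. On both, the P4 arrays exceeded the P0 arrays and overlapped the cultured ones. The log2 difference of P4 from P0 was 0.70 on the brighter (limma, adjusted p = 0.193) and 0.39 on the second (limma, adjusted p = 0.549).

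The 250 bases before the RefSeq start of Pola2, at chr1:212680543-212680792 on the minus strand of GRCr8, are shown as the promoter of the one gene of the 7 that works in DNA replication. They hold 1 GC box (GGGCGG, capitals) and no match to the E2F letters searched (GCGGGAA), with a GC content of 62.0%. Other spellings of an E2F site were not searched, so the lack of a match does not show that the promoter lacks one.
Pola2: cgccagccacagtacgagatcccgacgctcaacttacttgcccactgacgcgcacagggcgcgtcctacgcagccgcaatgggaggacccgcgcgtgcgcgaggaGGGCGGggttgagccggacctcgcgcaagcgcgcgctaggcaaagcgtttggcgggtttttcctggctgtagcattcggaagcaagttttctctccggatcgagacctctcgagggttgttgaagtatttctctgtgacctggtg

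Genes of mitosis and DNA replication were read from a list of 66, of which 35 were on the array and 34 bright enough to test (Pola2 was not in the list). Their summed intensity was 7713.2 to 9287.5 at P0, 11540.3 to 13789.6 at P4 and 9258.9 to 9467.1 after culture, so both P4 arrays were the highest. Between P4 and P0, 31 of the 34 had a positive log2 difference, with a median of 0.75 against -0.05 over all 6118 probe sets tested. A single gene, 1 of 34, passed the test, Ccnb1, the mitotic cyclin B1, which rose by 1.36 on the log2 scale (limma, adjusted p = 0.0347), a call lost in 9 alternatives (adjusted p 0.0634 to 0.179 by limma), among them leaving out any array but P0 replicate 1. Over all probe sets, 0.850% were called higher and 0.229% lower. At an unadjusted limma p under 0.05 between P4 and P0 were 23 of the 34, against 793 of all 6118 probe sets. P0 and P4 arrays of the same number share a chip identifier, and that number was fitted as a block in 2 ways. Over all 6 arrays (the 6-array block) limma called 0 of the 34, against 0.343% of all probe sets higher and 0.163% lower. Over the P0 and P4 arrays alone (the 4-array block, chosen after seeing the data) it called 14 of the 34 higher and 0 lower, against 3.17% higher and 1.96% lower. Between P4 and culture the median was 0.36 against 0.04 over all probe sets, and limma called none of the 34, against 0.621% higher and 2.16% lower over all probe sets. At an unadjusted p under 0.05 in that comparison were 11 of the 34 and 858 of all 6118 probe sets. None of the 35 met the level and fold that chose the 7.

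Kcnh1 codes for EAG1, a voltage-gated potassium channel best known from neurons. Its intensities were 16.9 and 16.5 at P0, 83.3 and 62.7 at P4, and 28.3 and 36.8 after culture. Both P0 arrays were under 20, both cultured arrays lay above them, and both P4 arrays above all 4. Its mean at P4 was at least 3.65 times that at P0, with the P0 readings set to 20, the highest such value among the 7, and 2.25 times that after culture. The family of EAG, ERG and ELK channels has 7 other genes on the array, Kcnh2 to Kcnh8, and none met the bounds. Among those 7, Kcnh6 was too dim to test, and none of the 6 tested passed the limma test in any of the 3 comparisons, with 1 at an unadjusted p under 0.05 in cultured minus P0 and 0 in the others. Over all probe sets limma called from 0.229% to 3.48% in a direction, so 0 of 6 is near that background and is no result about these channels. A second probe set of Kcnh2, the cardiac ERG channel, came nearest, with 63.0 and 53.1 at P0, 94.2 and 87.4 at P4, and 67.4 and 61.6 after culture, whereas the brighter probe set of that gene read 123.1 and 136.4, 99.2 and 118.9, and 91.5 and 117.6 in the same order.

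The promoter of Kcnh1, at chr13:106252966-106253215 on the plus strand of GRCr8 (RefSeq), is shown because Kcnh1 had the highest ratio of P4 to P0. Its 250 bases have a GC content of 71.6%, the highest of the 7 promoters read. In capitals and reading from the left, they hold the reverse complement of the NR5A site (AAGGTCA), of an E2F site (GCGGGAA) and of a GC box (GGGCGG).
Kcnh1: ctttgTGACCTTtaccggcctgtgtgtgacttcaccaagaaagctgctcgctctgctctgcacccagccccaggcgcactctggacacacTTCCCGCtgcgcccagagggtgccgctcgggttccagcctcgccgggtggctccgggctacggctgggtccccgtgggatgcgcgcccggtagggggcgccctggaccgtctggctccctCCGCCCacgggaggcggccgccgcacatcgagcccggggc

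Over all 33469 rat promoters in the same table, read over the same 250 bases on both strands, 3.99% held the NR5A site, 3.36% the E2F site, 30.5% the GC box, 12.9% the TATA box, 65.5% the E-box and 10.3% the GATA site as spelled above. A further 34.0% held the CCAAT box (CCAAT), 6.34% the AP-1 site (TGANTCA) and 1.59% the cAMP response element (TGACGTCA). A GC box and an E2F site can share letters, as they do in Gpx3. Entries were found for 6 of the 7 genes, with 7 promoters in all (Csdc2 had none). The GC box was in 5 of these 7 promoters, the E-box in 3, the E2F site in 2 (Kcnh1 and Gpx3), and the NR5A site, the CCAAT box, the TATA box and the GATA site in 1 each, while the AP-1 site and the cAMP response element were in none. The promoter of Cd3d held none of the searched motifs, and no motif was common to all 7. These are matches of letters and say nothing of binding.

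Cd3d codes for the delta chain of CD3, the signalling part of the T cell receptor, and is a defining marker of T cells. It read 13.0 and 17.7 at P0, 42.5 and 42.5 at P4, and 16.2 and 5.9 after culture. All 4 P0 and cultured arrays were under 20, so the mean at P4 was at least 2.12 times that of either group. It had the lowest P4 intensity of the 7.

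No other T cell gene met the level and fold. Of 9 others on the array, Cd2, Cd28 and Cd8a were under 20 on every array, and the 9 together summed to 232.5 to 252.7 at P0, 209.7 to 224.0 at P4 and 237.9 to 259.5 after culture, with both P4 arrays the lowest. Lck, the kinase that starts T cell receptor signalling, read 75.6 and 71.2 at P0, 56.3 and 57.7 at P4, and 79.1 and 73.5 after culture. Cd3g, the gamma chain of the same complex, was read by a pair of probe sets. The brighter gave 24.6 and 22.9 at P0, 33.4 and 37.1 at P4, and 24.5 and 35.7 after culture, and the dimmer 2.4 and 2.2, 25.5 and 24.6, and 11.6 and 18.2, so on the dimmer both P4 arrays were the highest, under the level of 40, and on the brighter P4 and culture overlapped. Cd247, the zeta chain, lay between 6.2 and 25.7 with no order of the groups. Limma called none of the 5 other T cell genes bright enough to test in any comparison. Over all probe sets it called 0.850% higher and 0.229% lower for P4 minus P0, 0.621% and 2.16% for P4 minus cultured, and 3.48% and 1.95% for cultured minus P0. A share of 0 of 5 is near those and is no result about these genes. At an unadjusted p under 0.05 there were 0 for P4 minus P0, 2 for P4 minus cultured and 2 for cultured minus P0, beside 793, 858 and 1270 of all 6118 probe sets.

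The wider list of macrophage and leukocyte genes, 20 on the array including Cd3d, was highest after culture. Its 19 other genes summed to 1323.6 to 1466.7 at P0, 973.1 to 1053.1 at P4 and 3234.9 to 5762.4 after culture. Of 14 of them tested, 8 were called lower at P4 than after culture and 0 higher, against 2.16% and 0.621% of all probe sets, with a median log2 difference of -1.66. The same number, 8, were called higher after culture than at P0 and 0 lower, against 3.48% and 1.95% of all probe sets. Lyz2, the lysozyme of macrophages, read 110.8 and 141.3 at P0, 89.0 and 102.8 at P4, and 2267.0 and 955.7 after culture, and fell by 3.84 at P4 against culture on the log2 scale (limma, adjusted p = 0.000366). Ctss, a lysosomal protease of antigen-presenting cells, fell by 2.56 in the same comparison (limma, adjusted p = 0.00212). Between P4 and P0, limma called 0 of the 14, against 0.850% of all probe sets higher and 0.229% lower, with 3 at an unadjusted p under 0.05 and a median of -0.36. With the 6-array block it called 0, against 0.343% higher and 0.163% lower. With the 4-array block it called 0 higher and 3 lower, against 3.17% and 1.96% of all probe sets. The part of blood cells in the reading of Cd3d was not tested.

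Nptx2 codes for neuronal pentraxin 2, a secreted protein that gathers glutamate receptors at synapses. Its chosen probe set read 41.8 and 34.5 at P0, 111.5 and 75.2 at P4, and 32.6 and 32.7 after culture. The P4 arrays were 36.3 apart but both above the rest, the cultured arrays lay under both P0 arrays, and the mean at P4 was 2.45 times that at P0 and 2.85 times that after culture. The name of this probe set marks it as one whose probes can match several transcripts. A second probe set of Nptx2 gave 50.2 and 36.5 at P0, 107.3 and 42.3 at P4, and 31.4 and 45.1 after culture, so only P4 replicate 1 stood out there and P4 replicate 2 lay among the others. Nptxr, the receptor of these pentraxins, read 40.7 and 32.1 at P0, 19.7 and 23.4 at P4, and 23.4 and 21.1 after culture, so its P4 arrays lay under its P0 arrays. Nptx1, its close relative, read 16.8 and 29.7 at P0, 8.3 and 23.1 at P4, and 20.8 and 9.9 after culture, with overlapping groups. Limma called neither in any comparison, and neither had an unadjusted p under 0.05. With from 0.229% to 3.48% of all probe sets called in a direction, this is no result about them.

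The neuron and neuroendocrine list, 21 genes on the array, held neither Nptx2 nor Kcnh1. Among its genes, 8 were under 20 on every array, and 12 were tested. Between P4 and P0 limma called none with or without either block, with 2 at an unadjusted p under 0.05, and the median log2 difference was -0.40 against -0.05 over all probe sets. Over all probe sets it called 0.850% higher and 0.229% lower without a block, 0.343% and 0.163% with the 6-array block, and 3.17% and 1.96% with the 4-array block. A share of 0 of 12 is near these and is no result about the list. Its summed intensity was 2143.1 to 2541.6 at P0, 1879.2 to 2813.6 at P4 and 2263.6 to 2614.1 after culture, and the 3 ranges overlapped.

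Gpx3 codes for the secreted glutathione peroxidase of blood plasma, a selenoprotein that reduces peroxides. It was the member nearest to the bound on fold, with a ratio of 1.66. Its chosen probe set read 16.7 and 32.9 at P0, 54.6 and 54.6 at P4, and 33.0 and 32.5 after culture. The P4 arrays agreed, P0 replicate 1 was the lowest, and the ratio to the P0 array of the same number was at least 2.73 for replicate 1, whose P0 reading was under 20, and 1.66 for replicate 2. A second, brighter probe set of Gpx3 gave 158.5 and 135.9 at P0, 133.1 and 166.6 at P4, and 102.8 and 167.3 after culture, and its 3 groups overlapped. The P4 pattern of Gpx3, like that of Nptx2, thus stood on 1 of the gene's 2 probe sets.

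The other glutathione peroxidases differed from Gpx3 and from each other. Gpx1, the cytosolic form, read 816.4 and 849.4 at P0, 1152.2 and 1258.8 at P4, and 630.7 and 493.6 after culture, which has both P4 arrays the highest, with its lower P4 array at less than 1.5 times either P0 array. It was higher at P4 than after culture by 1.10 on the log2 scale (SE 0.18, limma, adjusted p = 0.0111). That call was lost without P4 replicate 2 (0.0574) or without cultured replicate 2 (0.125), both adjusted p-values of the same limma test. Gpx2, the epithelial form, read 21.7 and 26.7 at P0, 18.8 and 27.0 at P4, and 208.6 and 187.8 after culture, and was lower at P4 than after culture by 2.76 on the log2 scale (limma, adjusted p = 0.000322). Gpx4 and Gpx7 passed no test, and Gpx5 and Gpx6 were too dim to test. Of 18 genes of glutathione use and detoxification on the array, 16 without Gpx3 were tested. Between P4 and P0 limma called none, against 0.850% of all probe sets higher and 0.229% lower, with 4 at an unadjusted p under 0.05 and a median of 0.13. The 6-array block called none, against 0.343% higher and 0.163% lower. A share of 0 of 16 is near both backgrounds and is no result about these genes. The 4-array block called 1 higher, Gsta1, a glutathione transferase (adjusted p = 0.0142 by limma, against 0.110 with the 6-array block), and 1 lower, beside 3.17% and 1.96% of all probe sets.

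**Figure D2:**
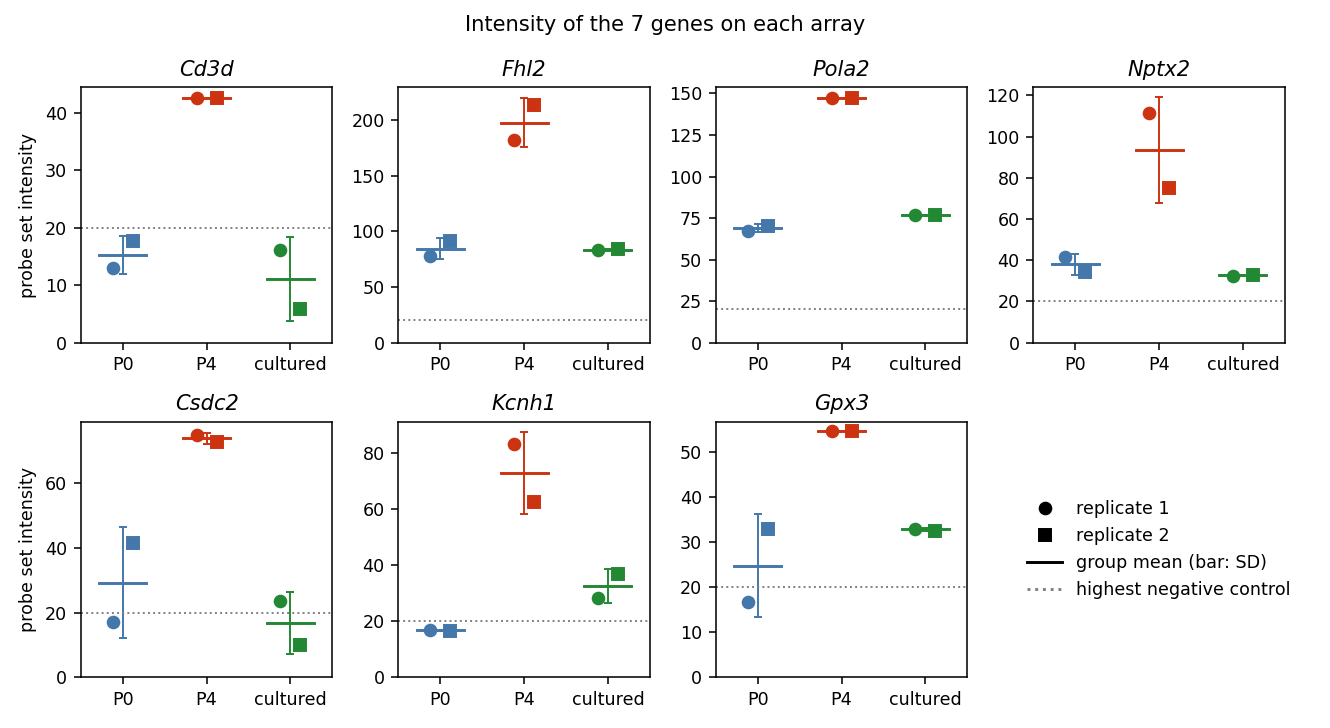
Intensity (vertical, linear axis from 0, own scale in each panel) of each of the 7 genes on the 6 arrays, with circles for replicate 1, squares for replicate 2, a line at the group mean and a bar of 1 SD. Both P4 arrays are the highest in every panel, as the choice of genes requires, and Cd3d, Csdc2, Kcnh1 and Gpx3 have arrays under the dotted line at 20.0.

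**Figure D3:**
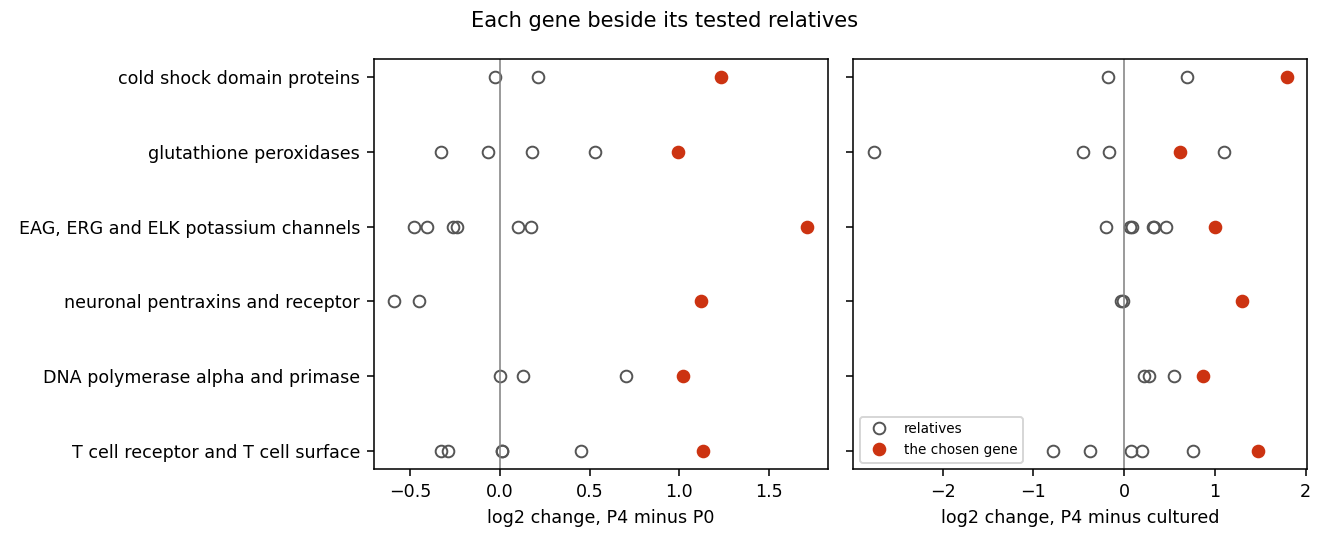
Log2 difference of P4 minus P0 (left) and P4 minus cultured (right) for 6 of the 7 genes (filled) beside the tested genes of the same family (open), with Gpx3 and Nptx2 drawn from the probe set that was chosen. The filled points were chosen to lie to the right; among the 22 open points none passed the test for P4 minus P0, and for P4 minus cultured Gpx1 at 1.10 and Gpx2 at -2.76 did.

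Across the 6 families, 22 relatives of the 7 genes were tested (no other gene of the Fhl family was read with 1 symbol). Between P4 and P0 limma called 0 of them, against 0.850% of all probe sets higher and 0.229% lower, and 0 with either replicate block. A share of 0 of 22 is near that background and is no result about the relatives. At an unadjusted p under 0.05 were 2 of the 22, beside 793 of all 6118 probe sets. Between P4 and culture 1 was called higher and 1 lower, the glutathione peroxidases already given, against 0.621% and 2.16% of all probe sets.

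Cultured and P0 ovaries were also set against each other for the 7 genes. The rule capped both groups at the lower P4 array divided by 1.5, though it did not fix which of them was higher, so these differences are a description too. At an unadjusted limma p under 0.05 were 1 of the 7 and 1270 of all 6118 probe sets. After adjustment limma called 213 of 6118 probe sets higher (3.48%) and 119 lower (1.95%) in cultured than in P0 ovaries, and 0 of the 7. A share of 0 of 7 is near that background, under a cap on both groups, and is no result about these genes. For Cd3d all 4 arrays lay under 20, so its fitted difference is not read as a result.

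Kcnh1 had the highest of these differences. Its P0 arrays were both under 20, and with these set to 20 its cultured mean was at least 1.63 times its P0 mean. On the fitted scale, which depends on the pseudocount there, the log2 difference was 0.71 (SE 0.27, 95% interval 0.12 to 1.31). That interval is not adjusted for the number of probe sets, and the adjusted p was 0.161 by limma. As the choice of genes capped both groups, the intervals given here are a description and no test. Csdc2 had the lowest, -0.56 (SE 0.38, interval -1.42 to 0.30), with overlapping arrays, of which 1 in each group was under 20. The brighter genes had narrower intervals. For Fhl2 the difference was -0.01 with an interval of -0.50 to 0.47, and for Pola2 it was 0.15 with an interval of -0.32 to 0.61. Gpx3 gave 0.36 (interval -0.30 to 1.02) and Nptx2 -0.18 (-0.76 to 0.40).

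**Figure D4:**
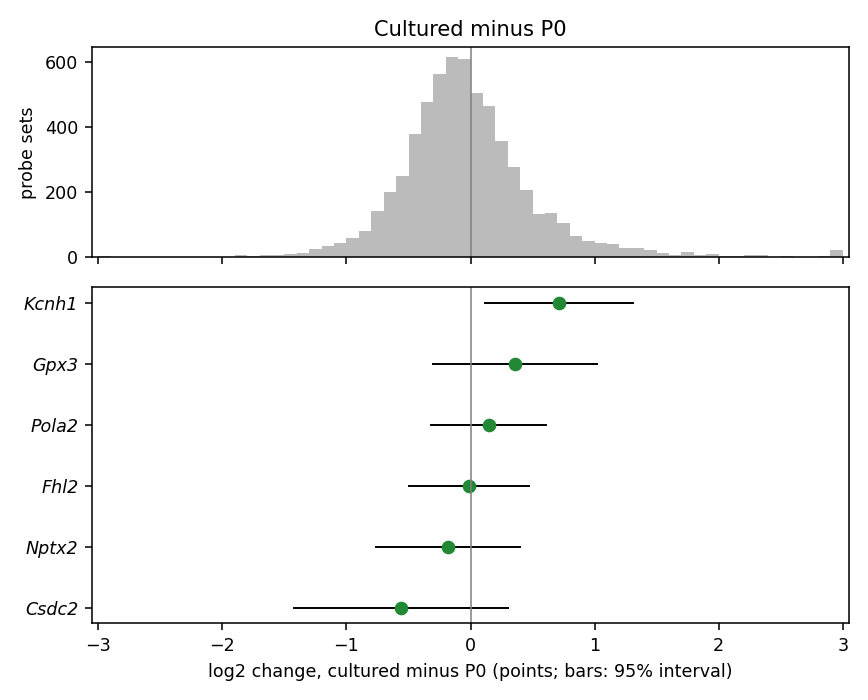
Log2 difference of cultured minus P0: above, the number of tested probe sets at each difference, with values beyond 3 drawn at 3; below, 6 of the 7 genes with their 95% intervals from the limma fit, without Cd3d, whose 4 arrays were under 20. The 6 points run from -0.56 for Csdc2 to 0.71 for Kcnh1, inside the bulk of all probe sets, and both groups were capped by the choice of genes.

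By cell type and function, the 7 genes were looked up in the lists kept for ovarian and neighbouring cell types. Cd3d was in the macrophage and leukocyte list and Gpx3 in the glutathione list, and the other 5 were in none, so 26 of 28 lists held none of the 7. The share of all genes on the array that the lists hold was not computed, so these counts are no result about the 7. Of the 4 genes left out by name, 3, Inha, Amh and Cyp19a1, were in the list of granulosa and pregranulosa cells, and Akr1c14 and Cyp19a1 in that of steroid synthesis. These left-out genes were named in the rule and the lists were drawn with earlier results known, so their place in the lists is no contrast with the 7. Their ratios and levels are bound by the same rule: Inha, the alpha subunit of inhibin, read 238.0 and 394.7 at P0, 1970.3 and 1349.1 at P4, and 360.7 and 462.3 after culture on its brighter probe set, well above any of the 7.

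Other granulosa and steroid genes were read beside the 7. Serpine2, a protease inhibitor of granulosa cells, read 172.5 and 205.0 at P0, 463.8 and 515.5 at P4, and 302.5 and 335.4 after culture, and rose by 1.34 on the log2 scale between P0 and P4 (limma, adjusted p = 0.0194, and 0.0510 to 0.0839 when 1 array was left out, the intensity trend was dropped or only the 2 groups were fitted). Nr5a2, the nuclear receptor LRH-1, whose family binds the NR5A site, read 5.8 and 5.7 at P0, 58.6 and 33.9 at P4, and 4.3 and 25.6 after culture. Its P4 arrays were the highest, its lower P4 array was under 40, and its log2 difference from P0 of 1.97 had an adjusted p of 0.101 by limma, 0.164 with the 6-array block and 0.00696 with the 4-array block. Krt19 and Fst, both in the granulosa and pregranulosa list, went the other way. Krt19 read 1103.3 and 1131.1 at P0 and 361.7 and 571.2 at P4, a log2 difference of -1.28 (limma, adjusted p = 0.0523). Fst read 1010.6 and 813.9 at P0 and 560.3 and 407.1 at P4, a log2 difference of -0.91 (limma, adjusted p = 0.101). Leaving aside the genes that met the bounds, 21 granulosa genes were tested, of which Serpine2 alone was called higher at P4 than at P0 and 0 lower, against 0.850% and 0.229% of all probe sets (7 at an unadjusted p under 0.05). The 6-array block called Serpine2 alone as well, against 0.343% and 0.163%, and the 4-array block 2 higher and 4 lower, against 3.17% and 1.96%. Of 18 other steroidogenesis genes limma called 0 (5 at an unadjusted p under 0.05), also 0 with the 6-array block, and with the 4-array block 2 higher, Star and Cyp17a1, and 1 lower, against the same 3.17% and 1.96%.

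The bounds of the rule cut through a continuous range. Just inside the fold of 1.5 lay Gpx3 (54.6 against 33.0), Kcnh1 (62.7 against 36.8) and Csdc2 (72.7 against 41.4). Just outside it lay Gde1, a glycerophosphodiester phosphodiesterase (302.3 against 202.5), Akr1b1, aldose reductase (1027.5 against 689.8), and Adam18, a gene best known from sperm (46.8 against 31.7). In all, 29 probe sets had a ratio between 1.3 and 1.5. A further 8 met the fold with a lower P4 array between 20 and 40, among them Inhbb, the beta B subunit of inhibin and activin, at 35.3 against 6.6, which is named here for its role and was picked after its values were seen. With readings under 20 set to 20, the ratio for Inhbb was at least 1.76.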

How the data were processed

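The deposited table holds linear probe set intensities for 8799 probe sets, which the authors had scaled: per the file values, the mean after trimming 2% at each end was 125.2 on all 6 arrays. Which algorithm and software made them is not given in the sources used here. Arrays give no read depth, so their number limits the precision. Groups and replicate numbers came from the labels. The genes and lists were chosen with earlier results of these data known, and the 6 families, with the relatives named in them, after the 7 genes were known. All 7 genes are named; relatives, the 3 probe sets nearest under the fold and up to 4 genes of a list holding at least 2 chosen or left-out genes were also named, and Ccnb1, Lyz2, Ctss and Gsta1 were picked after their values were seen. List counts leave out genes that met the bounds. A gene in a list is read by its brightest probe set.

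Symbols came from the platform annotation, and 6985 of 7006 matched RefSeq (GRCr8) with none changed. The 59 control probe sets were left out, 2622 dim ones (mean log2 under the 30th percentile) were not tested, and 6118 were. With limma 3.58.1 (R 4.3.3), log2(intensity + 7.7) was fitted with 3 group means and an intensity trend, two-sided, with Benjamini-Hochberg adjustment over all 6118 and calls at an adjusted p under 0.05. Log2 differences are on that scale and understate changes of dim genes. Counts at an unadjusted p under 0.05 have their own background. Of the 6118 it was 793 for P4 minus P0, 858 for P4 minus cultured and 1270 for cultured minus P0. The code was tested on simulated data. An exact permutation test of 2 against 2 arrays cannot go below 0.33.

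P0 and P4 arrays of the same number share a chip identifier in the labels, and their deviations from the group means correlated at 0.33; cultured arrays share none. Promoters came from a RefSeq table, cut to the 250 bases before the start.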

Additional observations from a re-analysis of the deposited data

How the results depend on the processing

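The number of chosen probe sets, 7, was 1 at a fold of 2 (Cd3d), 15 at a level of 20, 2 at a level of 80 (Fhl2 and Pola2), 9 after quantile normalization (the same 7 with Adam18 and Mapk9), and 6 without probe sets named as shared or rule-breaking (all but Nptx2). With 1 array left out the number ran from 11 to 65, highest without P4 replicate 1 (65) or P4 replicate 2 (56); the 7 stay by construction. For P4 minus P0, limma called 66 probe sets, 23 with no filter, 29 with no intensity trend, 23 with only the 2 groups, 31 with the replicate block over all 6 arrays, and 314 with the replicate block over the P0 and P4 arrays, a fit chosen after seeing the data; leaving out 1 array gave 15 to 55. For P4 minus cultured, 170 became 86 to 193, and for cultured minus P0, 332 became 90 to 353, when 1 array was left out. In cultured minus P0, 0 of the 7 were called under the alternatives run, of which the filter at the 50th percentile tested 3 of them (Fhl2, Pola2 and Nptx2). Their median log2 difference, -0.01, lay between -0.06 and 0.09, over those 3 with that filter, and was not computed with only the 2 groups. Of 87 log2 differences of the 7 genes under alternatives, 83 kept their sign and 4 did not: Fhl2 with quantile normalization (0.00), and, when 1 array was left out, Fhl2 (-0.11 to 0.09), Gpx3 (-0.01 to 0.73) and Cd3d (-0.75 to 0.06). The Cd3d values, which also enter the median and the count of calls, come from arrays under 20 and are no result. The call of Ccnb1 was lost in 9 alternatives (adjusted p 0.0634 to 0.179 by limma). The causes were not tested. With 2 arrays a group, p-values measure only the spread between these pools, and readings near 20 limit Cd3d, Csdc2, Kcnh1 and Gpx3.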
